A study of Homo sapiens with 9 samples.

Results

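The 8 genes described here act on actin filaments and on the myosin motors that pull them. They are citron kinase (CIT), the LIM kinases LIMK1 and LIMK2, the myosin light chain kinases MYLK and MYLK2, the Cdc42-binding kinases CDC42BPA and CDC42BPB, and ACTR2, a subunit of the Arp2/3 complex. They were taken by name from the count table of a pooled knockout screen, where these 8 names were found among 763 targeted genes. Each gene had 4 single guide RNAs (sgRNAs), so that 32 of 3152 sgRNAs belonged to these genes, and all 32 passed the minimum of 30 reads on average over the libraries.

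The screen was run in RH4, a rhabdomyosarcoma cell line with the PAX3::FOXO1 fusion, transduced with a lentiviral library against the kinome. For 10 days the cells received either pralatrexate, an antifolate, at 1.5 nM or vehicle, and a baseline sample was taken after puromycin selection. By the study's methods, the remaining cells recovered for 72 h between the baseline harvest and the start of treatment. Comparisons with baseline therefore span that recovery as well as the 10 days of treatment. There were 3 libraries each of pralatrexate, vehicle and baseline, and every library came from the same line carrying the same sgRNA pool. The sgRNA cassettes were amplified from genomic DNA, so reads count the cells that hold each sgRNA. A lower read share can come from slower division or from death of those cells, and the counts do not tell these apart. The results hold for 1 cell line, the extent of each knockout was not measured in these counts, and losses before the baseline sample are not seen. The labels number the libraries as repeats, and the study calls them both technical replicates and parallel cultures, so p-values rest on how far these libraries vary, and that variation may be technical.

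Actin filaments grow as straight bundles or as branched networks, and the Arp2/3 complex starts the branches. Myosin II slides filaments past each other once its regulatory light chain is phosphorylated, which is the step that myosin light chain kinases and citron kinase act on. Cofilin severs filaments until LIM kinases phosphorylate it, and LIM kinases are in turn activated by PAK kinases downstream of the small GTPases Rac and Cdc42. Together these proteins drive cell shape, migration and the contractile ring that separates daughter cells.

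In the genome, CIT lies on chromosome 12 (119685791 to 119877320, minus strand). This and the positions that follow are whole gene spans in GRCh38 from the GENCODE annotation, since the count table names sgRNAs by gene and cut sites were not placed. LIMK1 lies on chromosome 7 (74082933 to 74122525) and LIMK2 on chromosome 22 (31212239 to 31280080), both on the plus strand. MYLK, of smooth muscle and non-muscle cells, spans chromosome 3 from 123610049 to 123884332 on the minus strand, and MYLK2, the skeletal muscle enzyme, spans chromosome 20 from 31819308 to 31834689 on the plus strand. CDC42BPA is on chromosome 1 (226989865 to 227318492) and CDC42BPB on chromosome 14 (102932380 to 103057549), both on the minus strand. ACTR2, with 9 exons and the shortest coding sequence of the 8 (1182 bp), is on the plus strand of chromosome 2 (65227788 to 65271253).

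Libraries held 2468136 to 4602712 reads, and sgRNAs of the 8 genes took 0.930 to 1.01% of them. Single sgRNAs of these genes had 89 to 2572 reads per library, and the edgeR fit put the variation between libraries beyond counting error at a coefficient of variation of 13.2% over all sgRNAs. Fold changes below come from 1 edgeR fit over all 9 libraries, with counts scaled by TMM, which centres the bulk of the sgRNAs near 0. On that scale the 99 non-targeting sgRNAs, which cut nothing, did not sit at 0. Their median was 0.34 in pralatrexate versus baseline, 0.31 in vehicle versus baseline and 0.00 in pralatrexate versus vehicle. The 25 genes of a germline and lymphoid list are cut and were assumed not to be used by a sarcoma line, which was not tested here. They had medians of 0.07, 0.06 and 0.00 in the same comparisons. Single genes of this list ran from −0.34 to 0.26 in pralatrexate versus baseline and from −0.33 to 0.33 in vehicle versus baseline. Values are therefore also given relative to the non-targeting median. As a check of dropout, the mitotic genes CDK1, PLK1 and AURKB stood at −3.50, −2.09 and −1.85 in pralatrexate versus baseline, and at −3.25, −2.12 and −1.87 in vehicle versus baseline.

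Of the 8 genes, ACTR2 was the one with a large change in abundance. Its sgRNAs were at 45.8% of baseline after 10 days of pralatrexate, a log2 fold change of −1.13 ± 0.80 (SD over 4 sgRNAs), and at 55.3% of baseline after 10 days of vehicle, a log2 fold change of −0.85 ± 0.66. Relative to the non-targeting median these values were −1.46 and −1.17. The 7 kinases ranged from −0.02 to 0.18 in pralatrexate versus baseline and from −0.21 to 0.15 in vehicle versus baseline. Relative to the non-targeting median the 7 kinases ranged from −0.35 to −0.15 and from −0.52 to −0.16.

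**Figure D1:**
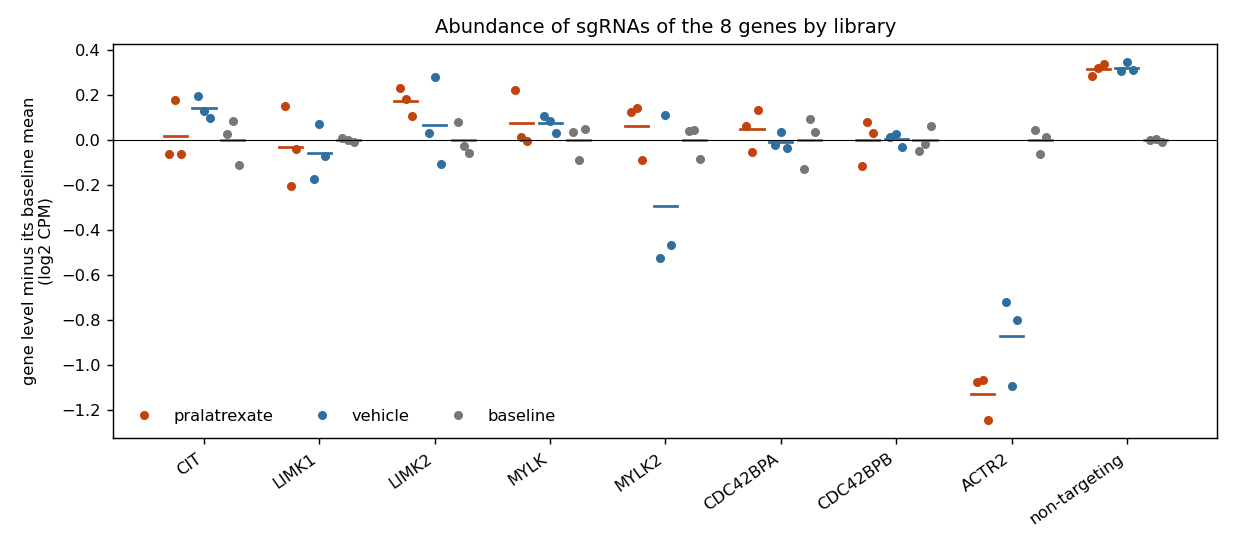
Gene level of each library, as mean log2 CPM of the gene's sgRNAs minus the mean of the 3 baseline libraries, for the 8 genes and the non-targeting sgRNAs. Points are libraries and bars are group means, with pralatrexate left, vehicle in the middle and baseline right. ACTR2 lies below its baseline in all 6 day-10 libraries, MYLK2 is low in 2 vehicle libraries, and the non-targeting sgRNAs lie above their baseline.

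ACTR2 encodes ARP2, one of the actin-related subunits that form the template of a new branch, and it is not a kinase. Mean log2 CPM of its 4 sgRNAs was 7.15, 7.16 and 6.98 in pralatrexate libraries, 7.51, 7.14 and 7.43 in vehicle libraries, and 8.27, 8.17 and 8.24 in baseline libraries. Neither day-10 group overlapped baseline, while pralatrexate and vehicle overlapped each other through vehicle replicate 2. The order was pralatrexate (7.10 ± 0.10), vehicle (7.36 ± 0.20) and baseline (8.23 ± 0.05; SD, n = 3 each).

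The loss was carried by 3 of the 4 sgRNAs, which are numbered 1 to 4 in the order of the count table. ACTR2 sgRNA 1 had 86.0, 129.6 and 94.1 CPM in pralatrexate libraries, 161, 112 and 112 CPM in vehicle libraries, and 292, 308 and 334 CPM at baseline. ACTR2 sgRNA 3 had 164, 166 and 136 CPM with pralatrexate, 172, 148 and 197 CPM with vehicle, and 487, 405 and 362 CPM at baseline. ACTR2 sgRNA 4 had 104, 72.3 and 83.6 CPM with pralatrexate, 173, 88.2 and 124 CPM with vehicle, and 249, 249 and 261 CPM at baseline. In each of these 3 sgRNAs every day-10 library was below every baseline library. ACTR2 sgRNA 2 was different, with 277, 266 and 235 CPM with pralatrexate, 227, 263 and 314 CPM with vehicle, and 257, 219 and 265 CPM at baseline, so that all groups overlapped.

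On the log2 scale ACTR2 sgRNAs 1, 3 and 4 stood at −1.60 ± 0.20, −1.43 ± 0.16 and −1.54 ± 0.22 in pralatrexate versus baseline (SE, edgeR adjusted p from 4.24e-08 to 2.46e-06), and sgRNA 2 stood at 0.07 ± 0.15 (adjusted p = 0.789). They stood at −1.28 ± 0.19, −1.28 ± 0.16 and −0.98 ± 0.21 in vehicle versus baseline (adjusted p from 2.53e-07 to 0.00108), and sgRNA 2 at 0.12 ± 0.15 (adjusted p = 0.636). The SD over its sgRNAs was thereby the highest of the 8 genes in both comparisons, where the median SD over all genes was 0.18 in pralatrexate versus baseline and 0.19 in vehicle versus baseline.

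**Figure D2:**
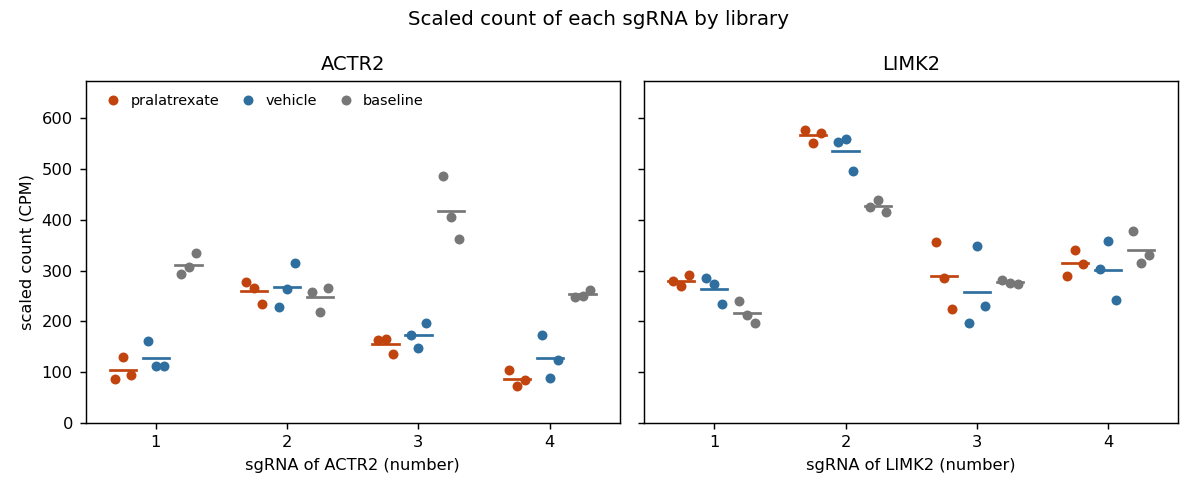
Scaled count (CPM) of each sgRNA of ACTR2 and LIMK2 in each library, with the bar at the group mean of 3 libraries. Pralatrexate is left, vehicle in the middle and baseline right. sgRNAs 1, 3 and 4 of ACTR2 are lower at day 10 than at baseline and sgRNA 2 is not, and sgRNA 2 of LIMK2 is higher in every day-10 library than in every baseline library.

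The gene test ranked the one-sided edgeR p-values of all sgRNAs and asked whether the ranks of a gene's sgRNAs were lower than independent ranks would be (robust rank aggregation, with its exact null distribution and Benjamini-Hochberg adjustment over 763 genes, FDR threshold 0.05). By this test ACTR2 was depleted in pralatrexate versus baseline (FDR 0.0203), the call of 1 of the 8 genes where 7.21% of all genes were depleted. Without the strongest sgRNA of every gene the call was lost (ACTR2 −0.97, FDR 0.100). It was not called in vehicle versus baseline (FDR 0.0654), and 0 of the 8 genes were depleted where 6.68% of all genes were. Without vehicle replicate 1 it was called there (−0.94, FDR 0.0400), and tests of the gene as a whole called it with all libraries. Namely, limma on mean log2 levels gave −0.87 (95% interval −1.06 to −0.68, FDR 4.43e-07) and edgeR on summed reads gave −0.83 (FDR 1.78e-11). Both tests, here and below, first combine the sgRNAs of a gene in each library. Their intervals and FDRs therefore leave out the spread between sgRNAs. There were 34 genes with 3 of 4 sgRNAs lower by edgeR in vehicle versus baseline, ACTR2 among them, and the rank test called 14 of these 34, against 35 of the 35 genes with all 4 lower.

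For pralatrexate versus vehicle, which asks what the drug added, all 4 sgRNAs of ACTR2 had a negative fold change. None was called by edgeR, and ACTR2 sgRNA 2 stood at only −0.05 ± 0.15 (SE). The mean was −0.27 ± 0.22 (SD over 4 sgRNAs), the 7th lowest of 763 genes, and ACTR2 sgRNA 4 had the most negative value among them at −0.56 ± 0.22 (SE, adjusted p = 0.820). The rank test gave FDR 0.983 and limma gave −0.26 with an unadjusted 95% interval from −0.45 to −0.07 (FDR 0.590). A difference between drug and vehicle in the loss of ACTR2 was therefore not established, and the interval reaches to a loss of 0.45. The value ran from −0.38 without vehicle replicate 2 to −0.18 without vehicle replicate 1.

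By gene level minus the baseline mean over the 6 day-10 libraries, the 3 genes of the library nearest to ACTR2 were TTK, WEE1 and NME6. Their levels, as difference from baseline, differed from those of ACTR2 by 0.12, 0.16 and 0.17 (root mean square, log2). This compares the size of mean changes only, and a shared function was not tested. TTK, a kinase of the spindle checkpoint, averaged −1.06 with pralatrexate and −0.93 with vehicle. WEE1, which restrains CDK1 before mitosis, averaged −1.03 with pralatrexate and −0.95 with vehicle. NME6, of the nucleoside diphosphate kinase family, averaged −1.18 with pralatrexate and −1.03 with vehicle.

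**Figure D3:**
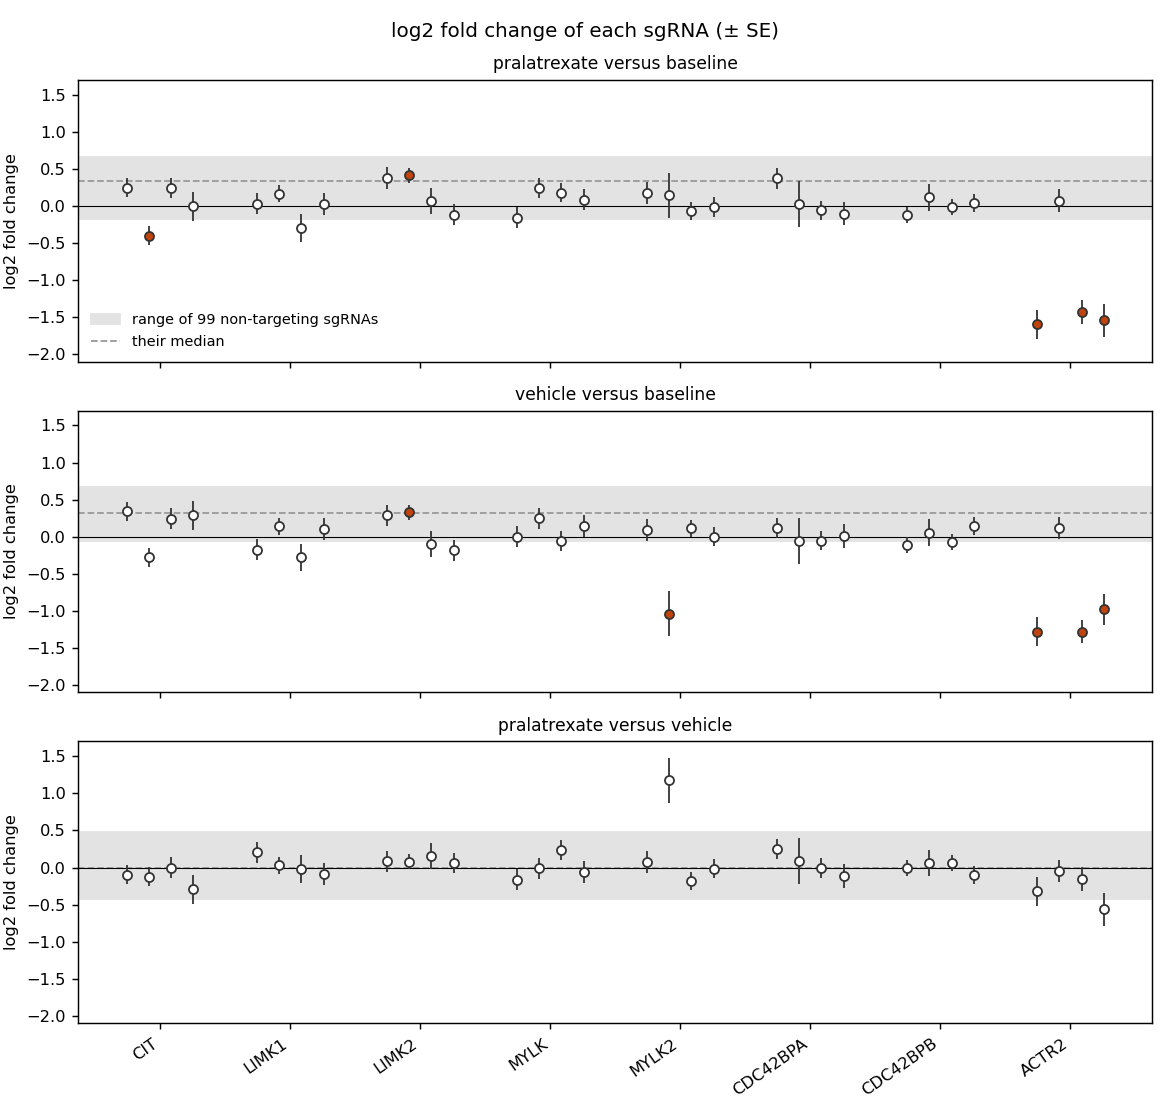
log2 fold change of each of the 32 sgRNAs with its SE, in pralatrexate versus baseline (top), vehicle versus baseline (middle) and pralatrexate versus vehicle (bottom). Filled points passed an edgeR adjusted p of 0.05, the grey band is the range of 99 non-targeting sgRNAs and the dashed line their median. ACTR2 sgRNAs 1, 3 and 4 lie far below the band in the first 2 comparisons, and MYLK2 sgRNA 2 lies far below it in vehicle versus baseline. In pralatrexate versus vehicle ACTR2 sgRNA 4 lies below the band and MYLK2 sgRNA 2 above it, and several other sgRNAs lie a little below the band in the comparisons with baseline.

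CIT, which works at the midbody when daughter cells separate, had sgRNAs that disagreed. CIT sgRNA 2 had 261, 377 and 316 CPM with pralatrexate, 359, 348 and 328 CPM with vehicle, and 445, 419 and 393 CPM at baseline. Every day-10 library was below every baseline library, and the log2 fold change was −0.40 ± 0.13 in pralatrexate versus baseline (SE, adjusted p = 0.0281) and −0.28 ± 0.13 in vehicle versus baseline (adjusted p = 0.136). The call in pralatrexate versus baseline was lost without baseline replicate 1 or 2 or pralatrexate replicate 1 or 3. CIT sgRNAs 1, 3 and 4 were at 0.25, 0.24 and 0.00 in pralatrexate versus baseline, and at 0.34, 0.24 and 0.29 in vehicle versus baseline. The gene mean was 0.02 ± 0.30 in pralatrexate versus baseline, 0.15 ± 0.29 in vehicle versus baseline and −0.13 ± 0.12 in pralatrexate versus vehicle (limma 95% interval −0.29 to 0.04). The last of these ranked 50 of 763 from the lowest and was not called (FDR 0.983).

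LIMK1 and LIMK2, which phosphorylate cofilin, were not called by the rank test in any comparison. LIMK2 sgRNA 2 had 576, 552 and 571 CPM with pralatrexate, 554, 559 and 496 CPM with vehicle, and 425, 439.8 and 415 CPM at baseline. No day-10 library overlapped baseline, and this was the only sgRNA of the 32 called higher, at 0.41 ± 0.10 in pralatrexate versus baseline (SE, adjusted p = 0.00392) and 0.33 ± 0.10 in vehicle versus baseline (adjusted p = 0.0207). The call in vehicle versus baseline was lost without baseline replicate 1, baseline replicate 3, vehicle replicate 1 or vehicle replicate 2, and it lay close to the non-targeting median in both comparisons. The other sgRNAs of LIMK2 ran from −0.12 to 0.37 in pralatrexate versus baseline and from −0.18 to 0.29 in vehicle versus baseline. As a gene LIMK2 stood at 0.18 ± 0.25, 0.08 ± 0.26 and 0.10 ± 0.04 in pralatrexate versus baseline, vehicle versus baseline and pralatrexate versus vehicle. For LIMK2, edgeR on summed reads gave a call in pralatrexate versus baseline (0.19, FDR 0.0388). LIMK1 stood at −0.02 ± 0.20, −0.05 ± 0.21 and 0.03 ± 0.12 in the same 3 comparisons, with limma FDR from 0.666 to 0.991.

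Of the myosin light chain kinases, MYLK was close to 0 on the TMM scale. It stood at 0.09 ± 0.18 in pralatrexate versus baseline, 0.08 ± 0.14 in vehicle versus baseline and 0.00 ± 0.17 in pralatrexate versus vehicle. Relative to the non-targeting median, MYLK stood at −0.25 in pralatrexate versus baseline and −0.23 in vehicle versus baseline. MYLK2 had 1 sgRNA that stood apart in 2 libraries. MYLK2 sgRNA 2 had 360.0, 325 and 352 CPM with pralatrexate, 59.2, 307 and 89.1 CPM with vehicle, and 332, 292 and 318 CPM at baseline. Vehicle replicates 1 and 3 were low, with 191 and 393 reads, and vehicle replicate 2, with 1412 reads, lay within the baseline range. This sgRNA was called lower in vehicle versus baseline (−1.04 ± 0.30, SE, adjusted p = 0.0142), and the call was lost without vehicle replicate 1, without vehicle replicate 3 and by DESeq2 on all libraries (−1.05, adjusted p = 0.178). The other sgRNAs of MYLK2 stood at 0.10, 0.11 and 0.00 there.

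MYLK2 sgRNA 2 stood in pralatrexate versus vehicle at 1.18 ± 0.30, the most positive value of the 32 (SE, adjusted p = 0.260). With the replicate number as a block it was called (1.40, adjusted p = 0.00169), and likewise without vehicle replicate 2 (2.21, adjusted p = 1.53e-09). The gene mean followed this sgRNA. It was 0.26 ± 0.62 in pralatrexate versus vehicle, rank 757 of 763, and −0.04 without the strongest sgRNA, and it was −0.21 ± 0.56 in vehicle versus baseline and 0.07 without that sgRNA. In pralatrexate versus baseline, where no vehicle library enters the difference, MYLK2 stood at 0.06 ± 0.12.

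**Figure D4:**
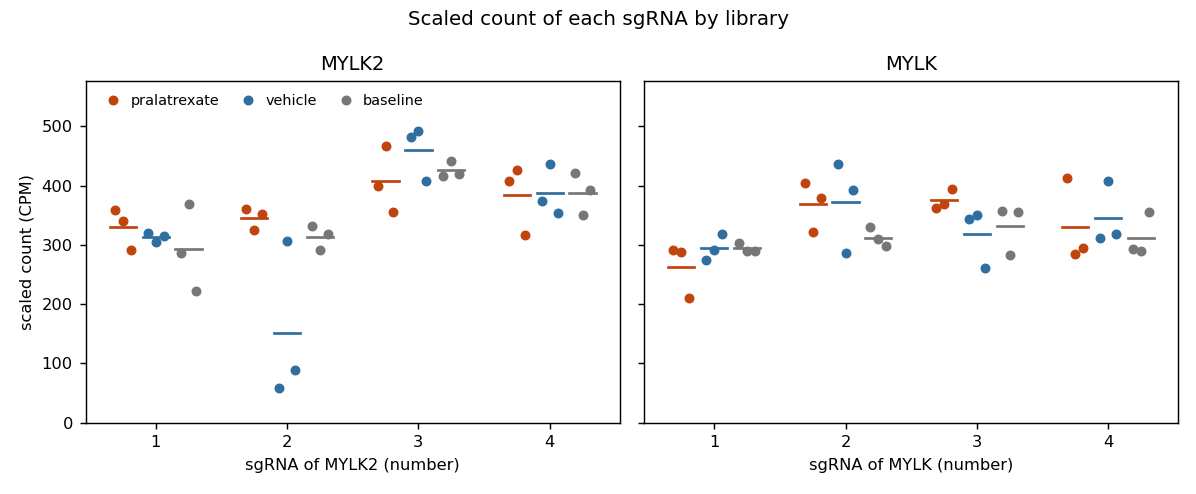
Scaled count (CPM) of each sgRNA of MYLK2 and MYLK in each library, with the bar at the group mean of 3 libraries, pralatrexate left, vehicle in the middle and baseline right. sgRNA 2 of MYLK2 is at 59.2 and 89.1 CPM in 2 vehicle libraries and at 292 CPM or more in the other 7 libraries.

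CDC42BPA and CDC42BPB encode the MRCK kinases, which phosphorylate myosin light chain on behalf of Cdc42. CDC42BPA stood at 0.06 ± 0.21 in pralatrexate versus baseline, 0.00 ± 0.08 in vehicle versus baseline and 0.05 ± 0.15 in pralatrexate versus vehicle. CDC42BPB stood at 0.00 ± 0.10, 0.00 ± 0.12 and 0.00 ± 0.08 in these comparisons. The limma 95% intervals of both genes lay between −0.17 and 0.22 in all 3 comparisons, so on the TMM scale larger changes were outside them. Scaled on non-targeting sgRNAs, CDC42BPA stood at −0.26 in pralatrexate versus baseline and −0.33 in vehicle versus baseline. On that scale CDC42BPB stood at −0.32 and −0.33, so these intervals bound changes on the TMM scale only. CDC42BPA sgRNA 2 was the least abundant of the 32, at 35.9 to 65.7 CPM over the libraries, and its SE of 0.31 was the widest of the 32 in each comparison.

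Over the 8 genes the median log2 fold change was 0.04 in pralatrexate versus baseline, against 0.01 over all 763 genes. It was 0.00 in vehicle versus baseline, against 0.02 over all genes, and 0.02 in pralatrexate versus vehicle, against 0.01. All 8 genes lay below the non-targeting median in both comparisons with baseline, as did 750 and 751 of the 763 genes. No member was enriched by the rank test in any comparison, where 0.262%, 0.393% and 0% of all genes were enriched in pralatrexate versus baseline, vehicle versus baseline and pralatrexate versus vehicle. At an unadjusted p of 0.05 the enriched genes among the 8 were 0, 0 and 1 (MYLK2), where 8.78%, 7.86% and 5.37% of all genes were. Depleted members numbered 0 in pralatrexate versus vehicle, where 0.524% of all genes were, and also 0 at an unadjusted p of 0.05, where 3.93% were. limma called 1 depleted (ACTR2) and 0 enriched in both comparisons with baseline. It depleted 19.9% and enriched 9.83% of all genes in pralatrexate versus baseline, and depleted 19.8% and enriched 9.04% in vehicle versus baseline. Between the arms limma called 0 members, against 0.524% of all genes depleted and 0.131% enriched.

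Of the 32 sgRNAs, 4 were lower in pralatrexate versus baseline (3 of ACTR2 and 1 of CIT), where 13.1% of all sgRNAs were lower, and 1 was higher (LIMK2), where 5.98% were. In vehicle versus baseline 4 were lower (3 of ACTR2 and 1 of MYLK2) against 12.8% of all sgRNAs, and 1 was higher (LIMK2) against 6.26%. None (0) was lower or higher by edgeR in pralatrexate versus vehicle, against 0.0318% and 0% of all sgRNAs, and 2 had an unadjusted p under 0.05, as did 5.60% of all sgRNAs. Gene levels were also compared by whether the libraries of 2 groups overlapped. In pralatrexate versus baseline 1 member was lower without overlap (ACTR2) and 1 was higher (LIMK2), where 25.6% and 20.3% of all genes were lower and higher. In vehicle versus baseline 1 was lower (ACTR2) and 1 was higher (CIT), where 24.4% and 19.5% of all genes were. In pralatrexate versus vehicle no member was without overlap, where 3.41% of all genes were lower and 3.67% higher. By the adjusted tests and by overlap the members' counts were thus at or below these background shares, except for the call of ACTR2 with pralatrexate. At an unadjusted p the counts in pralatrexate versus vehicle of enriched genes (1 of 8) and of sgRNAs (2 of 32) were above the background, by less than 1 member each.

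**Figure D5:**
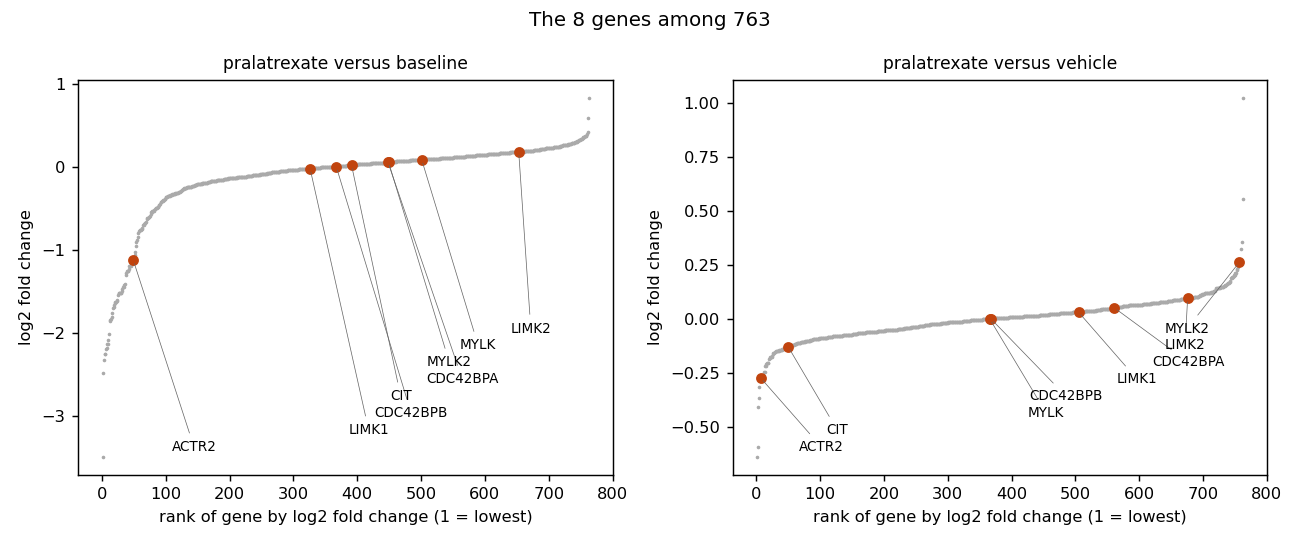
log2 fold change of all 763 genes (grey) in order of rank, with the 8 genes in colour, in pralatrexate versus baseline (left) and pralatrexate versus vehicle (right). ACTR2 is the lowest of the 8 in both, the kinases lie on the flat middle of the left plot, and MYLK2 is near the upper end of the right plot.

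The library held 30 further genes of the actomyosin pathway, among them other kinases of myosin light chain and cofilin, PAK and PKN kinases, class III myosins and twinfilins. PAK2, an effector kinase of Rac and Cdc42 that activates LIM kinases, was the only one called by the rank test. Its log2 fold change was −1.53 ± 0.72 in pralatrexate versus baseline (FDR 0.00441) and −1.67 ± 0.62 in vehicle versus baseline (FDR 0.00333), with all 4 sgRNAs lower in both. This was 1 of the 30 depleted, where 7.21% and 6.68% of all genes were in these comparisons. CDC42BPG, a relative of the MRCK kinases, stood at −0.40 in both and was not called by the rank test (FDR 0.156 and 0.151). limma called CDC42BPG depleted in both (FDR 0.000411 and 0.000345), with 3 of its 4 sgRNAs lower by edgeR. Of the 30 genes 0 were called by the rank test in pralatrexate versus vehicle, where 0.524% of all genes were depleted and 0% enriched. There PAK2 stood at 0.15 ± 0.19.

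The median of these 30 genes was 0.07 in pralatrexate versus baseline, 0.01 in vehicle versus baseline and 0.04 in pralatrexate versus vehicle. The highest was PAK3, a PAK of neurons, at 0.37 ± 0.05 in pralatrexate versus baseline (FDR 0.118), MYO3B, a class III myosin, at 0.30 ± 0.14 in vehicle versus baseline (FDR 0.556), and STK17B, a kinase of the DAPK family, at 0.21 ± 0.23 in pralatrexate versus vehicle (FDR 0.730). The lowest in pralatrexate versus vehicle was DMPK, the myotonic dystrophy kinase, at −0.14 ± 0.10 (FDR 0.983). By limma, 3 of the 30 were depleted and 6 enriched in pralatrexate versus baseline, where 19.9% and 9.83% of all genes were. In vehicle versus baseline 2 were depleted and 3 enriched, where 19.8% and 9.04% of all genes were.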

How the data were processed

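The authors deposited raw counts of reads per sgRNA, not normalized, for 9 libraries. The submitters' processing notes name Bowtie 1.0.0, while the mismatch settings and how reads were counted are not given in the sources used. Gene tables from MAGeCK that the authors also deposited hold their fold changes and p-values for 2 of the comparisons and were not used. Totals ran from 2468136 to 4602712 reads, and PCR copies count as separate reads.

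sgRNAs with a mean of at least 30 reads (3145 of 3152, 99 non-targeting) entered 1 quasi-likelihood fit of all 9 libraries in edgeR 4.0.16 under R 4.3.3 (scaled by TMM, with no covariate besides group), adjusted by Benjamini-Hochberg over all sgRNAs. The study's rank aggregation was run on the one-sided edgeR p-values (those under 0.25 counted) with the exact null distribution, adjusted over 763 genes. MAGeCK itself was not run, and how its random null would move calls was not tested. sgRNA fold changes were averaged to give a gene's fold change. Gene levels are means of log2 CPM (prior count 2), tested with limma 3.58.1. The edgeR fit and the rank aggregation were also run on simulated counts, in which all sgRNAs of a changed gene moved alike. The limma test was not run on them. DESeq2 1.42.0, other scalings, filters and left-out libraries were alternatives.

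Deviations from group means of same-numbered pralatrexate and vehicle libraries correlated at 0.175 to 0.198 over sgRNAs. A fit with the replicate number as a block was therefore also run over all 9 libraries, with baseline libraries blocked by number too. This pairing comes from the data and not from the labels.

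All 8 genes are named, and other genes of the set are not reported here. Of the 30 pathway genes, those passing the rank test are named, and otherwise the lowest and highest by fold change. CDC42BPG is named outside this rule, as a relative of CDC42BPA and CDC42BPB. The 8 genes, the lists and this rule were chosen with earlier results of these data known. Guide sequences were not analysed here.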

Additional observations from a re-analysis of the deposited data

How the results depend on the processing

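ACTR2 kept a negative fold change in every comparison under every alternative run. In pralatrexate versus baseline it was depleted in each of them except without the strongest sgRNA of each gene, where 0 members were depleted. It was also depleted in vehicle versus baseline by edgeR on summed reads and by limma on gene means (1 member each). Leaving out 1 library gave 0 to 1 depleted members there, where 49 to 56 of the 763 genes were depleted. The sgRNA-level fits with the 4 sgRNAs of ACTR2 and all libraries of both groups did not call it (FDR 0.0554 with the replicate block to 0.106 with non-targeting scaling). Summed reads called 1 enriched member (LIMK2) in pralatrexate versus baseline. These gene-level tests call more genes in all. For pralatrexate versus baseline limma called 152 depleted and 75 enriched genes and summed reads 174 and 123, against 55 and 2 by rank aggregation. For vehicle versus baseline limma called 151 and 69 and summed reads 160 and 110, against 51 and 3.

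With non-targeting sgRNAs as the scale, the median of all genes was −0.31 in pralatrexate versus baseline and −0.32 in vehicle versus baseline. The sgRNAs of members called were then 13 lower and 0 higher in pralatrexate versus baseline, and 14 lower and 0 higher in vehicle versus baseline. Of all sgRNAs, 42.9% and 45.2% were lower in these comparisons, and 0.254% and 0.35% were higher. For pralatrexate versus baseline this turned CIT (−0.30), LIMK2 (−0.14), MYLK (−0.24), MYLK2 (−0.26), CDC42BPA (−0.26) and CDC42BPB (−0.32) below 0. For vehicle versus baseline it turned CIT (−0.18), LIMK2 (−0.25), MYLK (−0.25), CDC42BPA (−0.33) and CDC42BPB (−0.33) below 0. Scaling on germline or lymphoid genes turned CIT (−0.028) and CDC42BPB (−0.047) in pralatrexate versus baseline, and CDC42BPA (−0.054) and CDC42BPB (−0.055) in vehicle versus baseline. With that scaling 0 sgRNAs of members were higher in vehicle versus baseline, where 3.37% of all sgRNAs were.

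Members' sgRNAs called higher in pralatrexate versus baseline numbered 3 with library totals, 3 with DESeq2, 2 with the replicate block and 2 with the compared groups alone, where 6.45 to 10.0% of all sgRNAs were higher. Those in vehicle versus baseline numbered 2 under each of these settings, where 7.15 to 10.7% were. Leaving out 1 library gave 1 higher in pralatrexate versus baseline, where 2.99 to 4.83% of all sgRNAs were. It gave 0 to 1 higher in vehicle versus baseline, where 3.5 to 5.85% were, and 0 to 1 in pralatrexate versus vehicle, where 0 to 0.0318% were. The replicate block gave 1 sgRNA higher in pralatrexate versus vehicle (MYLK2 sgRNA 2), where 0.0318% of all sgRNAs were (1 of 3145). Same-numbered libraries correlated at −0.0307 to 0.0207 between pralatrexate and baseline and at 0.0224 to 0.0706 between vehicle and baseline. For vehicle, 3 libraries correlated best with the baseline library of their own number, and for pralatrexate 0 did. These correlations are weak, and whether baseline numbers pair samples is not known from them. The block changed no call of a member in the rank test.

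The remaining changes of sign were in genes that the rank test did not call, MYLK2 with its single deviating sgRNA among them. In pralatrexate versus baseline LIMK1 was at 0.0081 with library totals, 0.00067 by summed reads and 0.073 without the strongest sgRNA. CIT was at −0.0015 by summed reads, and CDC42BPA at −0.047 without the strongest sgRNA. CDC42BPB was at −0.0018 with the block, −0.032 by summed reads and −0.00021 by limma. For vehicle versus baseline CDC42BPA was at −0.0053 with the block, −0.0073 by limma and −0.035 without the strongest sgRNA, CDC42BPB at −0.028 by summed reads and −0.044 without the strongest sgRNA, LIMK1 at 0.023 and MYLK2 at 0.071 without it. For pralatrexate versus vehicle MYLK was at −0.00050 and CDC42BPB at −0.0032 with the block, CDC42BPB at −0.0038 by summed reads and −0.0050 by limma, and LIMK1 at −0.025, MYLK at −0.079, MYLK2 at −0.041 and CDC42BPA at −0.012 without the strongest sgRNA. With 1 library left out, values in pralatrexate versus baseline ran over −0.060 to 0.065 for CIT, −0.12 to 0.060 for LIMK1, −0.0040 to 0.11 for CDC42BPA and −0.042 to 0.057 for CDC42BPB. Those in vehicle versus baseline ran over −0.12 to 0.0044 for LIMK1, −0.035 to 0.17 for LIMK2, −0.057 to 0.056 for CDC42BPA and −0.021 to 0.037 for CDC42BPB. Those in pralatrexate versus vehicle ran over −0.070 to 0.11 for LIMK1, −0.079 to 0.040 for MYLK and −0.045 to 0.054 for CDC42BPB. The cause of these changes was not tested. With 3 libraries a group and 4 sgRNAs a gene, a change well under the spread of single sgRNAs could not be told from 0.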
